A study of Drosophila melanogaster with 30 samples.

Results

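The small heat shock genes of the 67B cluster were followed in whole female *Drosophila melanogaster* through cold and heat: *Hsp67Bc*, *CG4456*, *Hsp22*, *Hsp26*, *Hsp67Ba*, *Hsp23* and *Hsp27*. The 7 genes were taken by their FlyBase symbols, out of 17807 genes in the count tables, and all 7 were counted and passed the filter on low counts in both library types. Small heat shock proteins share the α-crystallin domain and bind unfolding proteins without using ATP, so that other chaperones can refold them. In the fly their genes are switched on by the heat shock factor Hsf, and *Hsp26* and *Hsp27* are known to be transcribed in the ovary without any heat.

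Canton S, a wild-type strain of the laboratory, was kept at 25°C, and each pool held 6 adult females, so that the RNA of all tissues, ovary included, was mixed. There were 3 pools at each of 5 temperatures: 4°C, 10°C, 34°C and 37°C, reached from 25°C at 0.25°C per min, and the controls left at 25°C. At that rate the change took 84 min to 4°C, 60 min to 10°C, 36 min to 34°C and 48 min to 37°C, so that temperature and time away from 25°C cannot be told apart. The sample records give a further 5 min at 34°C and 37°C, whereas the methods give 5 min at 4°C and 37°C and none at 10°C and 34°C. Each pool gave 1 library depleted of rRNA (rRNA−) and 1 selected for polyadenylated RNA (polyA+), 30 libraries in all. That a pool gave both was inferred from the shared temperature and replicate number. Sequencer, read length and RNA amount differed with the library type and cannot be told apart from it.

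Equalized counts are the deposited counts after removal of rRNA reads and with polyA+ reads trimmed to 85 bp and sampled to match the rRNA− library of the same pool in depth. They totalled 2067003 to 5541348 per rRNA− library and 2188773 to 5925256 per polyA+ library. Of the female and ovary genes listed, the yolk protein gene *Yp1* had 11166 CPM or more in every rRNA− library, *osk* 456 CPM or more and *grk* 10.4 CPM or more. Of 6 male genes, *SP* had no count in any library, *Mst87F*, *dj* and *Acp36DE* had at most 1.08 CPM, *roX2* at most 2.45 CPM and *roX1* at most 11.3 CPM. The polyA+ libraries varied more among themselves: at 37°C the summed level of 6 chorion genes ran from 13091 to 18299.9 CPM in rRNA− and from 12.7 to 22467 CPM in polyA+ libraries. The summed level of 3 muscle genes ran from 5360.0 to 6398 CPM in rRNA− and from 1577 to 14427 CPM in polyA+ libraries at 37°C. The cause of this wider spread, which the rRNA− libraries of the same temperature did not show, was not tested. For any gene, fewer cells of a kind and less RNA per cell cannot be told apart in whole flies.

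The cluster lies on chromosome arm 3L (dm6) and spans 14184 bp. From left to right, *Hsp67Bc* is at positions 9371511-9372497 on the minus strand, *CG4456* at 9372722-9374964 and *Hsp22* at 9372931-9374964 on the plus strand, and *Hsp26* at 9376418-9377427 and *Hsp67Ba* at 9377802-9379534 on the minus strand. *Hsp23*, at 9381882-9382765, and *Hsp27*, at 9384063-9385694, lie on the plus strand. The whole 2034 bp span of *Hsp22* lies within *CG4456* on the same strand, and their transcripts share exons, so that reads in the shared part could be counted to either. *Hsp67Ba* shares 1375 bp, 79.3% of its span, with the antisense RNA *asRNA:CR43481* on the opposite strand. The libraries were strand-specific, but whether counting used the strand is not stated in the sources used here. *CG4456* is also known as gene 2 of the cluster and encodes a rhodanese-like protein, not an α-crystallin one.

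At 37°C all 7 genes had higher levels than at 25°C in every library of both types, with no overlap. The share of all genes that separated in this way was not counted. Of the 7, 6 passed the test in rRNA− libraries (all but *CG4456*) and 6 in polyA+ libraries (all but *Hsp27*), where a call needed a change of at least 2-fold and p under 0.05 after Benjamini-Hochberg adjustment in edgeR's quasi-likelihood test. Of all genes tested, 2.06% were called higher at 37°C in rRNA− libraries and 3.76% in polyA+ libraries. The median log2 fold change of the 7 was 4.02 in rRNA− libraries, where that of all genes was -0.05, and 5.56 in polyA+ libraries, where it was -0.18. In each type the median of the 7 was the value of *CG4456*, which had few counts and shares exons with *Hsp22*. The 7 values ran from 3.35 (*Hsp26*) to 8.91 (*Hsp23*) in rRNA− libraries. In polyA+ libraries they ran from 1.68 (*Hsp27*) to 9.64 (*Hsp23*). In polyA+ libraries levels of genes of other tissues differed between 37°C and 25°C, mostly without passing the test. The replicates spread widely at 10°C too, with summed levels of 1175 to 8728 CPM for muscle and 9029 to 49028 CPM for chorion genes. PolyA+ libraries of low histone share, described below, were among those at 10°C and 37°C. Of 3 muscle genes, 0 were called at 37°C, with log2 fold changes of 1.47 to 6.30 (median 1.93) and a summed level of 1577 to 14427 CPM, against 1202 to 1902 CPM at 25°C. Of 3 eye genes 1 was called higher (0.74 to 2.24), with a summed level of 1579 to 3027 CPM at 37°C, against 617 to 1415 CPM at 25°C. Of 6 chorion genes 0 were called (-2.43 to -1.06), with a summed level of 12.7 to 22467 CPM at 37°C, against 15826 to 30711 CPM at 25°C. In rRNA− libraries the medians at 37°C were 0.11 for muscle and 0.46 for eye genes, and 1 of the 6 chorion genes was called lower. The part of these differences in the polyA+ results was not tested.

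Levels are given as CPM, the count of a gene relative to the depth of its library, with TMM scaling within a library type.

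**Figure D1:**
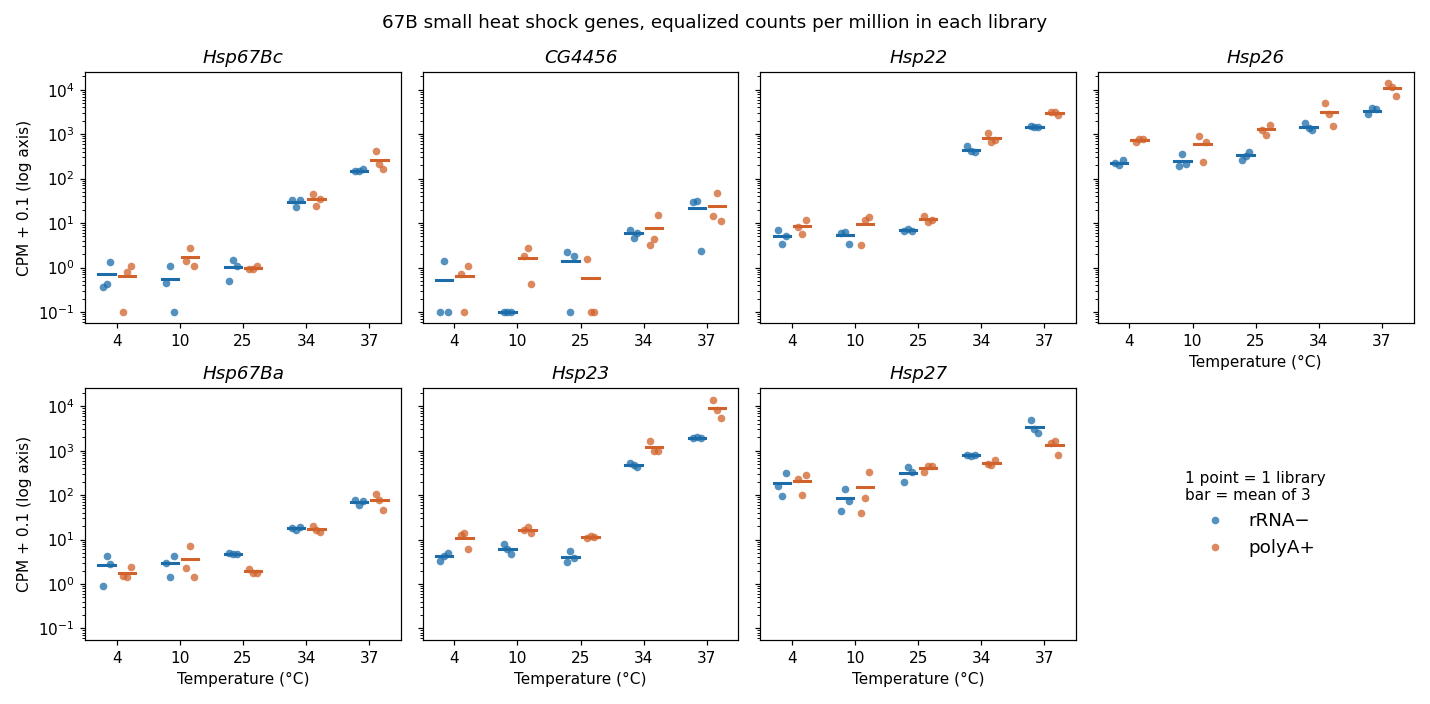
Equalized CPM plus 0.1 (log axis) of each gene against temperature in °C, rRNA− libraries in blue and polyA+ libraries in orange; 1 point is 1 library and a bar is the mean of 3. *Hsp22* and *Hsp23* lay under 20 CPM at 25°C and below and above 400 CPM at 34°C in every library, while *Hsp26* and *Hsp27* were at 196 CPM or more in every library at 25°C.

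*Hsp23*, a cytosolic small heat shock protein, gave the largest fold change of the cluster. In rRNA− libraries it had 1959, 1994 and 1939 CPM at 37°C, against 2.98, 5.49 and 3.65 CPM at 25°C. In polyA+ libraries it had 13939, 8014 and 5427 CPM at 37°C, against 10.6, 12.2 and 11.4 CPM at 25°C. The rRNA− pools at 37°C lay close together, whereas polyA+ replicate 1 stood well above the other two. The log2 fold change was 8.91 ± 0.23 (SE, n = 3 pools per temperature, 479.9-fold, edgeR, adjusted p = 6.46e-13) in rRNA− libraries and 9.64 ± 0.58 (797-fold, edgeR, adjusted p = 6.19e-07) in polyA+ libraries. Among all tested genes this was the 9th largest log2 fold change in rRNA− libraries and the 11th in polyA+ libraries.

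*Hsp22*, whose protein works in the mitochondrial matrix, had 1540.2, 1456 and 1449.7 CPM at 37°C, against 6.56, 7.26 and 6.57 CPM at 25°C, in rRNA− libraries. The polyA+ libraries had 3073, 3107 and 2739.8 CPM at 37°C, against 14.2, 10.5 and 11.9 CPM at 25°C. Replicates lay close together at both temperatures. The log2 fold change was 7.76 ± 0.23 in rRNA− libraries (217-fold, edgeR, adjusted p = 3.38e-12) and 7.92 ± 0.58 in polyA+ libraries (243-fold, edgeR, adjusted p = 5.39e-06).

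*Hsp67Bc*, a small heat shock protein that works with the co-chaperone Starvin in clearing misfolded proteins, was nearly silent in the controls. Its rRNA− libraries had 145, 148 and 161 CPM at 37°C, against 0.398, 1.37 and 0.973 CPM at 25°C. The 25°C values rest on 2, 7 and 4 counts. The polyA+ values were 419.9, 215 and 161 CPM at 37°C, against 0.848, 0.849 and 0.972 CPM at 25°C. The log2 fold change was 7.32 ± 0.37 in rRNA− and 8.18 ± 0.70 in polyA+ libraries (edgeR, adjusted p = 3.93e-09 and 2.61e-05).

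*Hsp26*, a cytosolic small heat shock protein, had a high level already at 25°C. It had 2791, 3791 and 3614 CPM at 37°C, against 268, 330.0 and 403 CPM at 25°C, in rRNA− libraries. The polyA+ libraries had 13919, 11278 and 7272 CPM at 37°C, against 1258, 953 and 1625 CPM at 25°C. The change of about 10.2-fold in rRNA− libraries (log2 3.35 ± 0.24, edgeR, adjusted p = 4.98e-07) and 8.46-fold in polyA+ libraries (log2 3.08 ± 0.54, edgeR, adjusted p = 0.0132) passed the test in both types. The polyA+ call was lost without 25°C replicate 2 (adjusted p = 0.0775), 25°C replicate 3 (0.0736) or 37°C replicate 1 (0.0637) in edgeR.

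*Hsp27*, a small heat shock protein found in the nucleus, had 4835, 3022 and 2545 CPM at 37°C, against 196, 420.2 and 332 CPM at 25°C, in rRNA− libraries. The polyA+ libraries of the gene had 1480.0, 1689 and 799 CPM at 37°C, against 337, 445 and 459 CPM at 25°C. The groups did not overlap in either type. The log2 fold change of 3.45 ± 0.51 passed the test in rRNA− libraries (10.97-fold, edgeR, adjusted p = 0.00258), and that of 1.68 ± 0.63 in polyA+ libraries did not (3.20-fold, edgeR, adjusted p = 0.118). It passed with DESeq2's Wald test (adjusted p = 0.0302), and in edgeR with only the 6 libraries compared (0.0369) or with all 30 in one fit (0.0356).

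*Hsp67Ba*, an α-crystallin gene whose product is little studied, had 76.0, 59.2 and 72.8 CPM at 37°C, against 4.77, 4.71 and 4.62 CPM at 25°C, in rRNA− libraries (log2 fold change 3.87 ± 0.36, edgeR, adjusted p = 7.12e-06). The polyA+ libraries had 105, 78.5 and 46.9 CPM at 37°C, against 2.12, 1.70 and 1.70 CPM at 25°C (5.36 ± 0.60, edgeR, adjusted p = 0.00045). The antisense RNA that overlaps it, *asRNA:CR43481*, had 42.5, 42.5 and 48.0 CPM at 37°C, against 3.18, 4.12 and 5.35 CPM at 25°C, in rRNA− libraries. It also passed the test in both types (3.39 ± 0.35 and 3.31 ± 0.49, edgeR, adjusted p = 2.41e-05 and 0.00515), so that counts of the sense and antisense gene moved together.

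*CG4456* was the least abundant gene of the cluster and the most uneven between pools. In rRNA− libraries it had 120, 123 and 9 equalized counts at 37°C, against 11, 0 and 7 at 25°C. Scaled by depth the groups only just failed to overlap, with the lowest 37°C library at 2.25 CPM and the highest 25°C library at 2.19 CPM. In polyA+ libraries it had 52, 168 and 40 counts at 37°C, against 7, 0 and 0 at 25°C. The single low library at 37°C, rRNA− replicate 3, had 29 counts in the full table, where replicate 1 had 101. The log2 fold change was 4.02 ± 1.11 in rRNA− libraries (edgeR, adjusted p = 0.0782), and 0.0262 was the adjusted p without replicate 3 at 37°C and 0.0263 in the full table. In polyA+ libraries it was 5.56 ± 1.29 (edgeR, adjusted p = 0.0347), a call lost without any one of replicates 2 and 3 at 25°C and 1 and 2 at 37°C (adjusted p 0.111 to 0.189).

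Summing *Hsp22* and *CG4456*, an alternative chosen after the data were seen, gave log2 fold changes at 37°C of 7.53 in rRNA− and 7.88 in polyA+ libraries, close to those of *Hsp22* alone. Over the rRNA− libraries the summed equalized counts of the pair were 99.0 to 100% of the full counts in each library, while *CG4456* alone ranged from 0 to 119%.

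**Figure D2:**
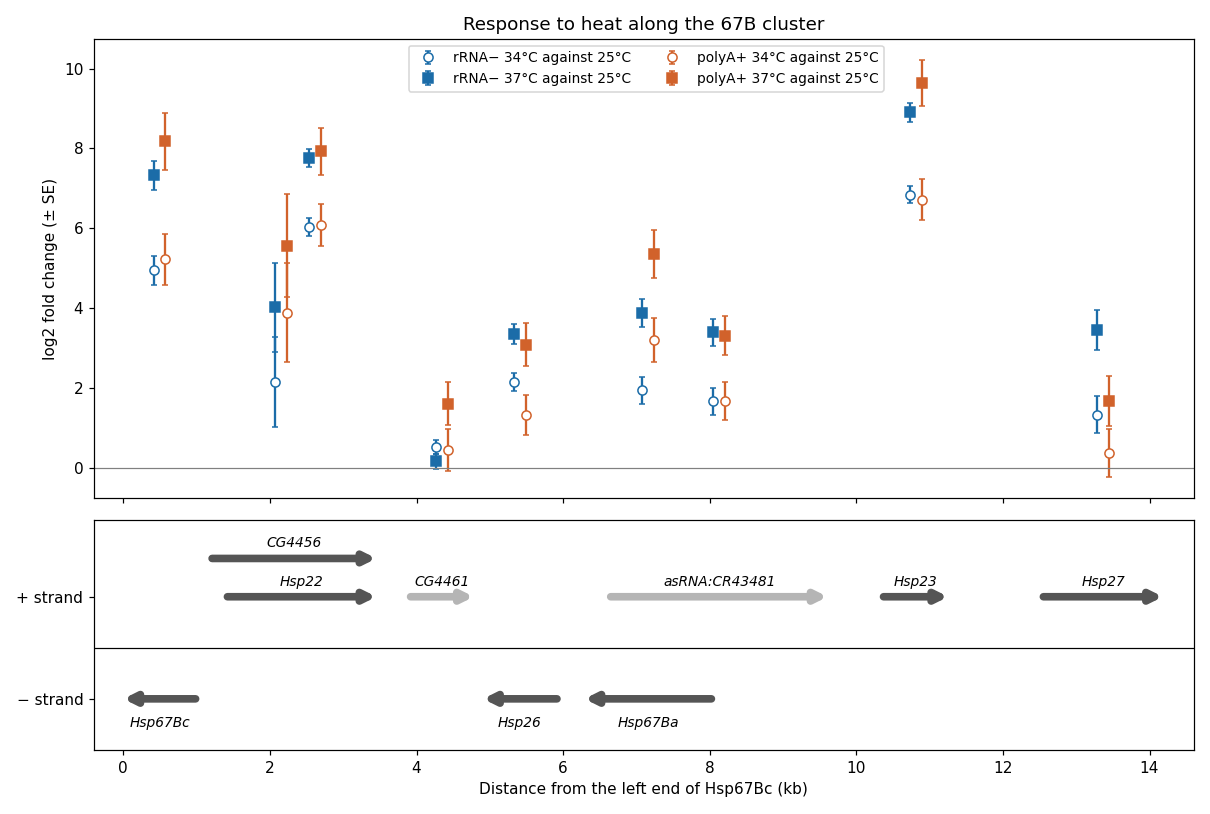
Top, log2 fold change at 34°C (open circles) and 37°C (squares) against 25°C with its SE, for the 7 genes and for CG4461 and asRNA:CR43481, each at the middle of its span; rRNA− in blue, polyA+ in orange. Bottom, the genes to scale in kb from the left end of Hsp67Bc, members dark and other genes pale, arrows in the direction of transcription; in rRNA− libraries CG4461 was at 0.16 at 37°C, between neighbours at 7.76 and 3.35.

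The question of onset is whether these genes had already changed at 34°C. In rRNA− libraries all 7 were higher at 34°C than at 25°C without overlap between libraries, a separation not counted over all genes. The test was passed by 5 of the 7, against 0.679% of all genes called higher. In polyA+ libraries 3 of the 7 passed, against 0.0864% of all genes, which was 8 genes in total. The median log2 fold change of the 7 was 2.14 in rRNA− and 3.89 in polyA+ libraries. The polyA+ median was the value of *CG4456*, which did not pass the test there, and the rRNA− median that of *Hsp26*.

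*Hsp23* had 518, 468 and 423 CPM at 34°C in rRNA− libraries and 1652, 985 and 981 CPM in polyA+ libraries, against the control levels given above, which were all under 13 CPM. Its log2 fold change was 6.84 ± 0.22 and 6.72 ± 0.52 in these types (edgeR, adjusted p = 1.69e-11 and 1.49e-05). *Hsp22* had 528, 407 and 406 CPM at 34°C in rRNA− libraries and 1089.7, 663 and 729 CPM in polyA+ libraries (log2 fold changes 6.03 ± 0.22 and 6.08 ± 0.54, edgeR, adjusted p = 7.67e-11 and 4.37e-05). Both genes were therefore up more than 60-fold at 34°C in each type. *Hsp67Bc* had 32.4, 22.3 and 32.7 CPM in rRNA− and 44.6, 24.0 and 34.1 CPM in polyA+ libraries (4.94 ± 0.37 and 5.22 ± 0.64, edgeR, adjusted p = 1.19e-06 and 0.00145). These 3 genes were the ones called at 34°C in both types, and *Hsp67Bc* stood at 5.45 in polyA+ RNA without the libraries of low histone share described below, a fit with 1 library left at 34°C (edgeR, adjusted p = 0.175). The 3 muscle genes had log2 fold changes of 1.51 to 5.06 at 34°C in polyA+ libraries, 0 of them called, and their part in these results was not tested.

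*Hsp26* and *Hsp27*, of high basal level, had smaller log2 fold changes at 34°C than *Hsp23*, *Hsp22* and *Hsp67Bc*. So did *Hsp67Ba* (1.93) and *CG4456* (2.14), of low basal level, in rRNA− libraries. In polyA+ libraries these last were at 3.20 and 3.89, above *Hsp26* and *Hsp27*. *Hsp26* had 1796, 1390 and 1233 CPM at 34°C, against 268, 330.0 and 403 CPM at 25°C, in rRNA− libraries, a log2 fold change of 2.14 ± 0.23 (edgeR, adjusted p = 9.54e-05). In polyA+ libraries it had 5131, 2876 and 1563 CPM at 34°C, against 1258, 953 and 1625 CPM at 25°C, and these overlapped (1.32 ± 0.51, edgeR, adjusted p = 0.538). *Hsp27* had 812, 758 and 814 CPM at 34°C in rRNA− libraries (1.33 ± 0.47, edgeR, adjusted p = 0.146) and 497, 481 and 619.6 CPM in polyA+ libraries (0.36 ± 0.61, edgeR, adjusted p = 1). It was the only one of the 7 whose polyA+ change at 34°C was under 1 on the log2 scale.

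*Hsp67Ba* had 18.3, 16.4 and 19.5 CPM at 34°C in rRNA− libraries (1.93 ± 0.34, edgeR, adjusted p = 0.0122), a call lost without 25°C replicate 2 (0.0528) or 3 (0.0665) in edgeR. Its polyA+ libraries had 20.2, 16.3 and 15.04 CPM, and the log2 fold change of 3.20 ± 0.56 lay just beyond the threshold in the equalized counts (edgeR, adjusted p = 0.0523) and passed it in the full counts of 85 bp (0.00485). *CG4456* had 24, 23 and 26 equalized counts at 34°C, against 11, 0 and 7 at 25°C, in rRNA− libraries (2.14 ± 1.13, edgeR, adjusted p = 0.294). In polyA+ libraries it had 9, 25 and 79 counts at 34°C, against 7, 0 and 0 at 25°C (3.89 ± 1.23, edgeR, adjusted p = 0.418).

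From 34°C to 37°C levels went on rising in rRNA− libraries, where 5 of the 7 passed the test between these temperatures, against 0.175% of all genes (17 genes). The log2 fold change, 37°C over 34°C, was 2.38 ± 0.26 for *Hsp67Bc*, 2.06 ± 0.16 for *Hsp23*, 1.94 ± 0.32 for *Hsp67Ba*, 1.73 ± 0.17 for *Hsp22* and 1.21 ± 0.23 for *Hsp26* (edgeR, adjusted p = 0.000246, 6.85e-06, 0.0184, 0.000104 and 0.0392). The calls of *Hsp26* (adjusted p 0.0554 to 0.224) and *Hsp67Ba* (0.0627 to 0.14) were lost without any 1 of the 6 libraries, in edgeR. *Hsp27* stood at 2.13 ± 0.48 (edgeR, adjusted p = 0.128). It passed with DESeq2's Wald test (adjusted p = 0.00448) and in edgeR with only the 6 libraries compared (0.00321). In polyA+ libraries none of the 7 passed, and 0% of all genes were called higher, with 5 of the 7 at an unadjusted p under 0.05 in edgeR and 5 called by DESeq2's Wald test. Of all 9257 genes, 660 had such an unadjusted p, in either direction. The largest 2 values of the 7 in polyA+ libraries were *Hsp23*, 2.92 ± 0.43, and *Hsp67Bc*, 2.96 ± 0.53 (edgeR, adjusted p = 0.0816 and 0.319). In either type 6 of the 7 genes had no overlap between 37°C and 34°C, the exception being *CG4456*. How many of all genes separated likewise was not counted.

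The level at 34°C can also be read as a share of the mean level at 37°C. In rRNA− libraries *Hsp26* had reached 43.3% (36.3 to 52.9% over 3 libraries), *Hsp22* 30.2%, *CG4456* 27.3%, *Hsp67Ba* 26.1%, *Hsp23* 23.9%, *Hsp27* 22.9% and *Hsp67Bc* 19.2% (14.7 to 21.6%). The basal level at 25°C was 9.81% of that at 37°C for *Hsp26* and 9.12% for *Hsp27*, but 0.206% for *Hsp23*, 0.459% for *Hsp22* and 0.604% for *Hsp67Bc*. *Hsp27* thus stood at 22.9% with a basal 9.12%, while *Hsp22* stood at 30.2% from a basal level under 1%. In polyA+ libraries *Hsp27* was at 40.2% at 34°C and already at 31.3% at 25°C, and *Hsp23* and *Hsp67Bc* were at 13.2% and 12.9%.

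**Figure D3:**
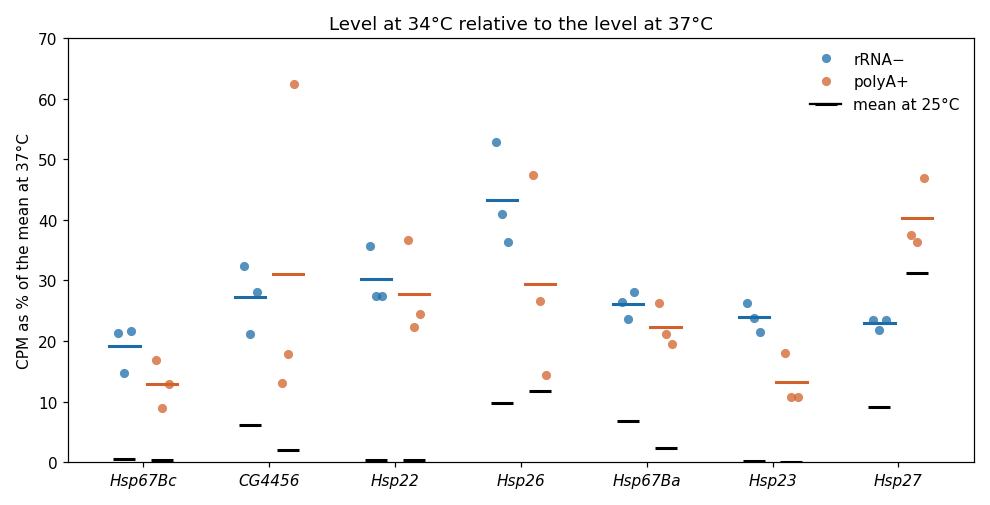
CPM in each library at 34°C as a percent of the mean at 37°C of the same type (points, with their mean as a coloured bar), and the mean at 25°C on the same scale (black bars). In rRNA− libraries Hsp26 was highest at 34°C, at 43.3%, and Hsp67Bc lowest, at 19.2%; the basal bars of Hsp67Bc, Hsp22 and Hsp23 lie under 1%.

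Levels between genes were compared per length, as TPM, in which counts are scaled by the union of exons and by depth. At 37°C in rRNA− libraries the order was *Hsp26* (4766 ± 776 TPM, SD, n = 3), *Hsp23* (3145 ± 74.97), *Hsp27* (3006 ± 1037), *Hsp22* (1104 ± 35.0), *Hsp67Bc* (217 ± 11.7), *Hsp67Ba* (56.6 ± 6.79) and *CG4456* (14.3 ± 11.1), where *Hsp27* (2193 to 4174 TPM) overlapped with both *Hsp23* (3085 to 3229) and *Hsp26* (3893 to 5374), and stood above *Hsp26* in replicate 1. At 25°C the order was *Hsp26* (555 ± 109.95 TPM), *Hsp27* (327 ± 123), *Hsp23* (7.73 ± 2.67), *Hsp22* (6.02 ± 0.49), *Hsp67Ba* (4.56 ± 0.14), *Hsp67Bc* (1.57 ± 0.87) and *CG4456* (1.02 ± 0.91). The neighbours *Hsp26* and *Hsp27*, *Hsp23* and *Hsp22*, and *Hsp67Bc* and *CG4456* overlapped between libraries, and 42.4-fold lay between *Hsp27* and *Hsp23*. *Hsp67Bc* was thus above *Hsp67Ba* at 37°C and below it at 25°C.

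In polyA+ libraries at 37°C *Hsp26* (11280.2 ± 3006 TPM) and *Hsp23* (10742 ± 4309) overlapped, and *Hsp22* (1663 ± 167) stood above *Hsp27* (862 ± 322). At 25°C *Hsp26* (1741 ± 327 TPM) stood 4.86-fold above *Hsp27* (358 ± 93.9), without overlap, and *Hsp23* and *Hsp22* followed at 18.2 ± 3.92 and 8.90 ± 0.58. The place of *Hsp27* in the order at 37°C therefore differed between the library types. *Hsp22* is given here over 1900 bp of exon. Over the 968 bp of its short transcript its mean TPM at 37°C would be 2167 in rRNA− and 3265 in polyA+ libraries, with the same place in the order. At 25°C in rRNA− libraries it would be 11.8, above *Hsp23* at 7.73.

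Together the 7 genes took 0.988 ± 0.071% of equalized counts at 37°C, against 0.0688 ± 0.0166% at 25°C, in rRNA− libraries (SD, n = 3). In polyA+ libraries they took 2.05 ± 0.58% at 37°C, against 0.180 ± 0.028% at 25°C. The make-up also differed: of the summed TPM of the 7 at 37°C in rRNA− libraries *Hsp26* held 38.8%, *Hsp27* 24.3%, *Hsp23* 25.6% and *Hsp22* 8.97%. At 25°C *Hsp26* and *Hsp27* held 62.1% and 35.5%, and *Hsp23* and *Hsp22* held 0.854% and 0.691%. In polyA+ libraries *Hsp23* held 42.4% at 37°C and 0.869% at 25°C, and *Hsp27* 3.47% and 16.9%. In these shares *Hsp22* was taken over 1900 bp of exon, and its share would be larger over the 968 bp of its short transcript. The equalized counts of *Hsp27* hold a smaller part of its full counts than those of other members, as given below.

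**Figure D4:**
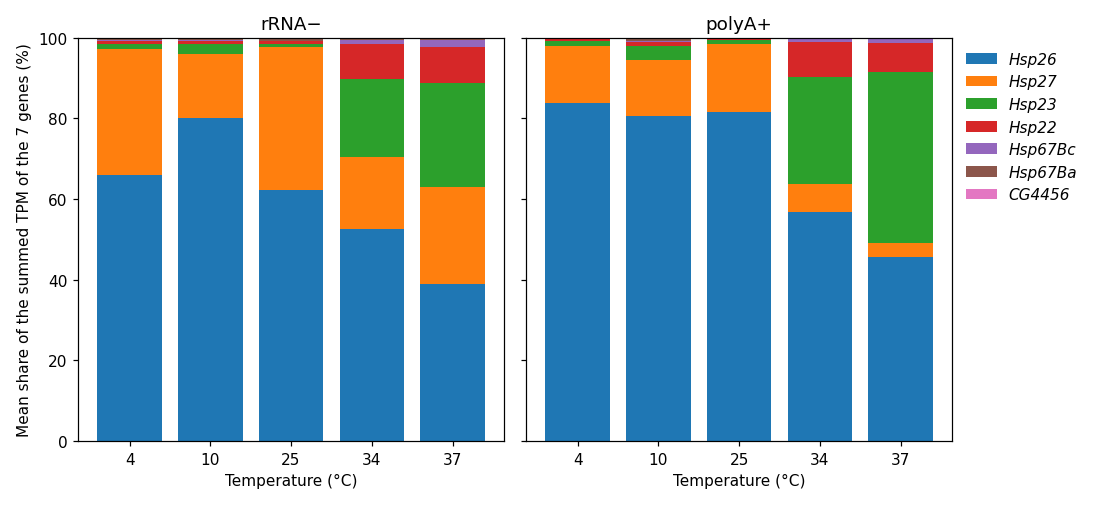
Mean share, in percent, of the summed TPM of the 7 genes taken by each, at each temperature in °C, for rRNA− (left) and polyA+ libraries (right), 3 libraries per bar. Hsp26 and Hsp27 fill nearly the whole bar at 25°C and below, and Hsp23 holds 25.6% in rRNA− and 42.4% in polyA+ libraries at 37°C. Hsp22 is scaled over 1900 bp of exon.

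Few genes of the cluster were called in the cold, which does not show that levels stayed the same. Of 7 log2 fold changes, 6 were under 0 at 4°C in each type. At 10°C 6 were in rRNA− and 3 in polyA+ libraries. The median of all genes lay between -0.01 and 0.10. In polyA+ libraries the 7 summed to 1423 to 2110 CPM at 25°C. They summed to 910 to 1101 CPM at 4°C and 371 to 1020 CPM at 10°C. In rRNA− libraries these sums were 481 to 769, 313 to 582 and 256 to 501 CPM, with overlap. At 4°C none of the 7 passed the test in either type, and no gene of the whole table was called lower (0% in each). In rRNA− libraries 2 of the 7 had an unadjusted p under 0.05 in edgeR, against 400 of all 9718 genes. In polyA+ libraries none had, against 58 of all 9257 genes, and DESeq2 called none of the 7 in either. At 10°C in polyA+ libraries none of the 7 and no gene of the whole table was called lower (0%). In edgeR 2 of the 7 had an unadjusted p under 0.05, against 584 of all 9257 genes, and DESeq2 called none of the 7. At 10°C in rRNA− libraries 1 of the 7 was called lower, against 1.23% of all genes.

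That gene was *Hsp27*, with 44.5, 135 and 73.5 CPM at 10°C, against 196, 420.2 and 332 CPM at 25°C, in rRNA− libraries. The groups did not overlap, and the level fell by 1.90 ± 0.49 on the log2 scale (edgeR, adjusted p = 0.0408). The call was lost without 10°C replicate 1 (adjusted p = 0.165), 10°C replicate 3 (0.144), 25°C replicate 2 (0.154) or 25°C replicate 3 (0.126) in edgeR. Over all alternatives the log2 fold change lay between -2.43 and -1.595 and the adjusted p between 0.0047 and 0.961. In polyA+ libraries *Hsp27* had 39.0, 86.3 and 330.5 CPM at 10°C, against 337, 445 and 459 CPM at 25°C, also without overlap (log2 fold change -1.44 ± 0.62, edgeR, adjusted p = 0.759). At 4°C it had 158, 97.8 and 312 CPM in rRNA− and 234, 98.9 and 283 CPM in polyA+ libraries (-0.74 ± 0.47 and -1.01 ± 0.62, edgeR, adjusted p = 1 in both).

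*Hsp26*, the other gene of high basal level, had 194, 352 and 215 CPM at 10°C, against 268, 330.0 and 403 CPM at 25°C, in rRNA− libraries (-0.39 ± 0.22, edgeR, adjusted p = 0.295). In polyA+ libraries it had 908, 241 and 659 CPM at 10°C, against 1258, 953 and 1625 CPM at 25°C (-1.09 ± 0.50, edgeR, adjusted p = 0.759). Its values at 4°C were 226, 202 and 256 CPM in rRNA− and 677, 790.3 and 797 CPM in polyA+ libraries, below all 3 controls of the same type (-0.55 ± 0.22 and -0.76 ± 0.50, edgeR, adjusted p = 1 in both). *Hsp23* was the one gene of the 7 whose rRNA− log2 fold change at 10°C was positive, 0.61 ± 0.24 (edgeR, adjusted p = 0.145), at 7.71, 5.96 and 4.74 CPM, against 2.98, 5.49 and 3.65 CPM at 25°C. *CG4456* had no equalized count in the 3 rRNA− libraries at 10°C, against 11, 0 and 7 counts at 25°C, and a count of 0 allows up to 3 counts per library. Its log2 fold change was -5.34 ± 3.00 in equalized and only -1.67 ± 1.45 in full counts (edgeR, adjusted p = 0.305 and 0.497).

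Whether the heat response differed between library types was tested in one fit of all 30 libraries, without a term for the pool. None of the 7 passed at 34°C or 37°C, and of all genes 0.0099% passed at each of these temperatures (1 gene). At 34°C none of the 7 had an unadjusted p under 0.05 in edgeR, against 325 of all 10103 genes. At 37°C 1543 of all 10103 genes had such a p, and so did 2 of the 7. DESeq2 called none of the 7 at either. The 2 were *Hsp27*, whose log2 response was larger in rRNA− libraries by 1.73 ± 0.83 (edgeR, adjusted p = 0.325), and *Hsp67Ba*, with a difference, rRNA− minus polyA+, of -1.56 ± 0.68 (edgeR, adjusted p = 0.286). An interval of ± 2 SE ran from 0.06 to 3.39 for *Hsp27* and from -2.92 to -0.20 for *Hsp67Ba*, so that sizeable differences remained possible. For *Hsp22* it ran from -1.23 to 0.81 and for *Hsp26* from -0.86 to 1.26. These intervals leave out the pairing by pool. With pools as a block none of the 7 passed at 34°C or 37°C. The differences at 37°C were then 1.82 for *Hsp27* and -1.47 for *Hsp67Ba* (edgeR, adjusted p = 0.372 and 0.396). At 4°C and 10°C none of the 7 passed either, with none and 2 at an unadjusted p under 0.05 in edgeR and none called by DESeq2. Of all 10103 genes, 93 and 216 had such a p at these temperatures.

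Levels, as distinct from responses, did differ between types. At 25°C 3 of the 7 were called lower in rRNA− than in polyA+ libraries, against 14.7% of all genes: *Hsp26* (log2 -2.31 ± 0.39, edgeR, adjusted p = 1e-04), *Hsp23* (-1.88 ± 0.36, 0.000326) and *Hsp22* (-1.21 ± 0.37, 0.0106). At 37°C 4 of the 7 were lower in rRNA− libraries, against 23.4% of all genes: *Hsp23* (-2.66 ± 0.34, edgeR, adjusted p = 3.85e-06), *Hsp26* (-2.11 ± 0.39, 0.000146), *Hsp22* (-1.42 ± 0.34, 0.00147) and *Hsp67Bc* (-1.25 ± 0.44, 0.0189). *Hsp67Bc* lost the call without 37°C replicate 1 (adjusted p = 0.326) or 2 (0.0624), and *Hsp22* lost it at 25°C without replicate 1 (0.0764) or 3 (0.0656). Over 11 alternatives the 37°C difference of *Hsp67Bc* ran from -1.61 to -0.46 on the log2 scale, and 4 of them lost the call. *Hsp27* went the other way at 37°C, at 0.95 ± 0.59, without passing the test (edgeR, adjusted p = 0.165). Scaling mattered here, since with library totals the median of all genes stood at 0.40 at 25°C and 0.50 at 37°C, where it was 0.06 and -0.02 with TMM. *Hsp22* was then not called at 25°C (edgeR, adjusted p = 0.0762) and stood at -0.85 at 37°C, and *Hsp67Bc* was not called at 37°C (edgeR, adjusted p = 0.22). With library totals *Hsp67Ba* at 25°C (1.31, edgeR, adjusted p = 0.0302) and *Hsp27* at 37°C (1.54, edgeR, adjusted p = 0.0456) were called higher in rRNA− libraries. *Hsp26* and *Hsp23* were called lower in rRNA− libraries under TMM, DESeq2 size factors and library totals.

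The full table, made from all reads with rRNA, gave the same calls for 6 of the 7 genes at 37°C in rRNA− libraries, and *CG4456* in addition. Equalized and full counts of *Hsp27* differed. In rRNA− libraries its equalized counts were 75.2 to 91.7% of the full counts, between 79.3 and 91.7% at 37°C and between 75.9 and 78.3% at 25°C, whereas *Hsp26*, *Hsp23* and *Hsp67Ba* kept 98.5 to 100%. Of 6621 genes with at least 1000 full counts over these libraries, 192 kept a lower share. In polyA+ libraries it kept 66.1 to 74.6% of the rate of its library, where *Hsp26* kept 99.6 to 104% and the medians of the other members were 99.6 to 105%. In the full table its log2 fold change at 37°C was 3.32 ± 0.49 in rRNA− and 1.79 ± 0.64 in polyA+ libraries (edgeR, adjusted p = 0.00262 and 0.101).

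The histone share of full counts, normally low in polyA+ RNA, ran from 0.00173 to 0.0240% in polyA+ libraries. The share was low in 5 of them, 1 at 10°C, 2 at 34°C and 2 at 37°C. Leaving these out kept 1 library at 34°C and 1 at 37°C, each assumed to vary like the other groups. Without these 5 libraries, 4 of the 7 genes were called higher in polyA+ samples at 37°C and 2 at 34°C. At 37°C the log2 fold change was then 8.87 for *Hsp23*, 7.80 for *Hsp22* and 7.44 for *Hsp67Bc*. *Hsp26* stood at 2.51 (edgeR, adjusted p = 0.166) and *CG4456* at 4.42 (0.97), and with 1 library a missed threshold says little about either. The part of RNA selection in these results was not tested.

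Few other genes with an α-crystallin domain were called. Of *l(2)efl*, *CG4461*, *CG7409*, *CG13133* and *CG14207*, none was called at 34°C in either type. At 37°C 1 of these 5 was called in rRNA− libraries, *l(2)efl* (log2 1.01 ± 0.18, edgeR, adjusted p = 0.00493), and 1 in polyA+ libraries, *CG7409* (2.14 ± 0.55, adjusted p = 0.0487). Of all genes tested, 2.06% were called higher at 37°C in rRNA− and 3.76% in polyA+ libraries, and 0.679% and 0.0864% at 34°C. The median log2 fold change of the 5 at 37°C stood at 0.16 in rRNA− and 1.597 in polyA+ libraries, where those of all genes were -0.05 and -0.18. *CG4461* lies inside the cluster, between *Hsp22* and *Hsp26*, at 9375430-9376293 on the plus strand. It had 106, 101 and 103 CPM at 37°C, against 119, 73.1 and 85.9 CPM at 25°C, in rRNA− libraries (0.16 ± 0.18, edgeR, adjusted p = 0.709), and 545, 257 and 171 CPM at 37°C, against 157, 72.1 and 92.6 CPM at 25°C, in polyA+ libraries (1.597 ± 0.54, edgeR, adjusted p = 0.0924). Of 14 genes within 20 kb of the cluster, *CG4461* among them, 10 were tested in each type, and only *asRNA:CR43481* was called at 37°C.

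Larger heat-inducible chaperones and co-chaperones were higher in heat too. The 11 listed genes were the Hsp70 copies, *Hsp68*, *Hsp83*, *DnaJ-1*, *stv* and the gene of the heat shock factor, *Hsf*, which is not a chaperone. Of these 11, 9 were tested in rRNA− libraries, 7 of them called higher at 34°C (median log2 fold change 5.96) and 8 at 37°C (7.41). In polyA+ libraries 8 were tested, with 4 called higher at 34°C and 7 at the higher temperature. The shares of all genes called higher at 34°C and 37°C were 0.679% and 2.06% in rRNA− libraries. In polyA+ libraries these shares were 0.0864% and 3.76%. Hsp70 copies are nearly identical, so that reads may be split among them. Of 6 counted constitutive chaperones, 1 was called at 37°C in rRNA− libraries, *Hsc70-3*, the chaperone of the endoplasmic reticulum (1.09 ± 0.14, edgeR, adjusted p = 0.000266), and none in polyA+ libraries.

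The genes whose levels followed the mean profile of the 7 most closely over the 15 rRNA− libraries, as a description, were *DnaJ-1* (Pearson r = 0.991), *Hsp70Bc* (0.988), *CG5290* (0.986), *stv* (0.986) and *Hsp68* (0.982). Over the 15 polyA+ libraries their r was 0.941, 0.945, 0.915, 0.968 and 0.977. The points share pools, temperatures and scaling. *DnaJ-1* and *stv* encode co-chaperones, of the Hsp40 and the BAG kind, and *Hsp68* a member of the Hsp70 family. *DnaJ-1* averaged 2390 ± 278 CPM at 37°C, against 169 ± 20.1 CPM at 25°C, in rRNA− libraries (SD, n = 3), so that it too was well expressed at 25°C. Among the 7, r with their own mean profile was lowest for *CG4456* (0.895) and *Hsp27* (0.943) in rRNA− libraries, and for *Hsp27* (0.809) in polyA+ libraries.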

How the data were processed

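The authors deposited whole-number read counts per gene, without normalization, for reads aligned to dm6; their pipeline makes STAR and Salmon estimates, and which the counts hold is not stated. Both tables were used: equalized counts for all results and full counts (85 bp, and 150 bp for polyA+) as alternatives. The 7 genes and the lists were chosen with earlier results of these data known; named genes are the 7, listed genes, and the 5 of highest correlation. edgeR 4.0.16 (R 4.3.3, limma 3.58.1) fitted the 15 libraries of a type with TMM, filterByExpr and robust quasi-likelihood (9718 genes tested in rRNA−, 9257 in polyA+). Fits across types used all 30 libraries (10103 genes). SE is the fold change over the root of F. DESeq2 1.42.0 was an alternative. Coordinates and exon lengths are from Ensembl release 115. CPM beside *r* were log2 with a prior count of 2. A count of 0 was read as up to 3 counts. Libraries of 1 temperature and replicate number in both types were taken as 1 pool. The procedure was tested on simulated data. Of 30 replicate pairs, 0 were identical. Whether replicate pools came from separate cultures is not stated, so p-values measure the spread between pools. The median log2 fold change of all genes at 37°C moved with the scaling, in polyA+ libraries to -0.50 with library totals and -0.02 with DESeq2 size factors, where it was -0.18 with TMM. Sequences were not used here. Plots used matplotlib 3.10.9.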

Additional observations from a re-analysis of the deposited data

How the results depend on the processing

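Counts of called genes among the 7 were unchanged or within 1.5 times under most alternatives. At 10°C in rRNA− libraries the 1 call (*Hsp27*) became 0 without the filter, with only the 6 libraries compared, with one fit of all 30 libraries and with the replicate block, and ranged from 0 to 1 when single libraries were left out. Between 37°C and 34°C the 5 calls in rRNA− libraries became 1 in one fit of all 30 libraries and were 3 in every case when single libraries were left out. In polyA+ libraries the 0 calls between 37°C and 34°C became 5 with DESeq2's Wald test, 5 in one fit of all 30 libraries, 1 with library totals, 1 with full counts of 85 bp and 1 of 150 bp, and ranged from 0 to 2 without single libraries. The 3 polyA+ calls at 34°C became 5 with DESeq2 and 5 with full counts of 150 bp. Differences between library types that turned in sign, none of them called, were *Hsp67Bc* at 25°C (0.0058 with library totals), *CG4456* at 37°C (0.017 with full counts of 150 bp, 0.57 without the low-histone polyA+ libraries) and *Hsp67Ba* at 37°C (0.017 with library totals, 0.20 without the low-histone libraries). The cause was not tested.

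Whether replicate numbers pair the pools within a library type was not settled. Of 30 pairs of same-numbered libraries in each type, 7 in rRNA− and 11 in polyA+ correlated above 0.1 in their deviations. The median r was -0.01 and -0.02 and the highest 0.24 and 0.42. With the number as a block, 6 of the 7 were called at 37°C in rRNA− and 5 in polyA+ libraries. Between types a number was taken to mark a pool, an assumption that the deviations do not settle. Over the 15 such pairs the deviations correlated at -0.33 to 0.49 (median 0.149), 9 of them above 0.1. The block by pool left 3 calls at 25°C and 4 at 37°C, and it changed no call there. Depth limits *CG4456*, *Hsp67Bc* and *Hsp67Ba* at 25°C and below, where a library held 24 counts or fewer. It also limits *Hsp23*, with 15, 28 and 15 counts at 25°C and 10 to 22 counts at 10°C in rRNA− libraries, and *Hsp22*, with 7 to 19 counts at 10°C.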
